A study of Sus scrofa with 6 samples.

Results

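The subject here is the long unspliced intergenic lncRNAs of pig skeletal muscle, transcript models of a single exon that span more than 5000 bp between annotated genes. They were taken from a table of 4046 putative lncRNA transcripts as the models with the intergenic class code, 1 exon, a length over 5000 bp and a gene ID that no other model carries. Of 278 single-exon intergenic models over 5000 bp, 276 were kept by this rule and by the exclusion of a pair of models by name. The rule used no expression value. The lncRNAs were measured in 6 libraries of female Qinyu pigs (spelled Qingyu in the paper) at 178 days of age, 3 of longissimus dorsi muscle (LDM, glycolytic) and 3 of psoas major muscle (PMM, oxidative). All animals were of 1 breed, age and sex and were fasted before slaughter, and no treatment is named. The paper describes LDM and PMM samples from 1 set of pigs, of which 3 were drawn at random for sequencing. The labels do not say which pig gave which library, and none states that the replicate numbers mark pigs. In the main fit, which pairs no libraries, differences between animals therefore count in the spread within each muscle. The p-values rest on the spread between these 3 libraries of each muscle, drawn toward the spread of other tested transcripts of similar level.

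Long non-coding RNAs are transcripts with no recognised protein product. Those between genes, often called lincRNAs, have their own transcription units, and many are spliced and polyadenylated like mRNAs, while others, such as MALAT1 and NEAT1 in mammals, are long, largely unspliced and kept in the nucleus. A model with no splice junction carries less evidence of where an RNA starts and ends than a spliced one, since genomic DNA, the extended end of a neighbouring gene and pieces of 1 longer RNA all give unspliced reads. LDM is a fast, glycolytic back muscle and PMM a slower, more oxidative muscle of the loin. The transcripts are known only by assembly names, and no function is annotated for any of the 276.

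The libraries were made from RNA depleted of ribosomal RNA, with a protocol that keeps the strand. The FPKM values (the fragments mapped to a transcript, scaled to its length and to the fragments mapped in the library) rested on 7.24 to 8.78 gigabases of aligned sequence per library, the least in LDM replicate 2 and the most in LDM replicate 3. Of 22 marker genes of muscle, fat, immune, stromal and endothelial cells, only SLN, SLA-11 and PDGFRB overlapped a transcript of the table. Among these SLN is the muscle marker, and its values were not used here. The tissue labels could not be checked against markers such as MYH7 or MYH4, which had no transcript. The intergenic models themselves mark no cell type. In whole muscle, fewer cells of a type and less RNA per cell cannot be told apart.

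The 276 models had a median length of 7513 bp, a mean of 9600 bp (SD 5870 over models) and a range of just over 5000 to 50277 bp. Together they covered 2.65 Mb. Lengths over 10000 bp were found in 82 models, over 20000 bp in 14 and over 30000 bp in 4. The plus strand held 135 and the minus strand 141. Chromosome 1 held 39 (14.1%), chromosome 13 held 27 (9.78%) and chromosome 2 held 22 (7.97%), while the single-exon intergenic models of over 400 to 5000 bp had 11.5%, 8.63% and 5.74% of their number there. The coding potential score CPC, for which lower values mean less coding potential, had a median of -1.11 in the long models, -1.16 in those of over 400 to 5000 bp, -1.19 in those of up to 400 bp and -1.11 in multi-exon intergenic models. Positions are given as in the authors' table. The methods name Sscrofa11.1, but positions ran past the last gene of that assembly on 18 of 19 chromosomes, with 21 of the 276 models beyond it, so the build is not settled and no sequence is printed.

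The levels were low in both muscles. The mean FPKM over the 6 libraries had a median of 0.639 over the 276 lncRNAs, with quartiles of 0.418 and 1.02, a lowest value of 0.0263 and a highest of 3.54. It reached 1 FPKM in 77 lncRNAs, 2 FPKM in 11 and 3 FPKM in 6. The values rested on many reads for their size, because the models are long. Of 1105 values above 0, 1104 stood for at least 10 read equivalents (coverage times length over a read length of 150 bases). The median read equivalents of a value above 0 were 400, 613 and 176 in LDM replicates 1, 2 and 3 and 514, 443 and 397 in PMM. Counting error was thus small beside the differences between libraries described next.

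**Figure D1:**
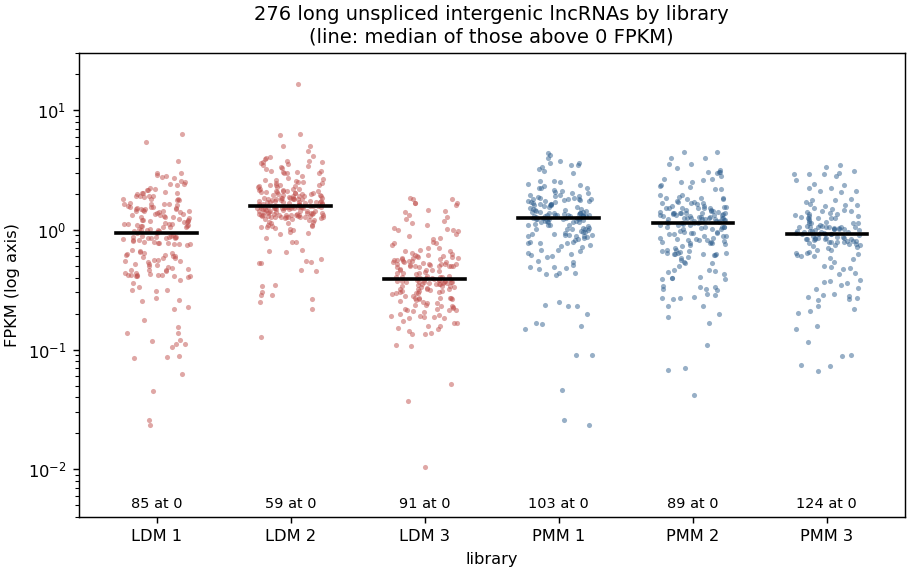
FPKM (log axis) of the long unspliced intergenic lncRNAs in each library, with 1 point for each of the 276 models above 0 FPKM and a line at their median. The line stands at 1.59 FPKM in LDM replicate 2 and at 0.389 FPKM in LDM replicate 3, with the other 4 libraries between 0.928 and 1.26.

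The 3 LDM libraries spread far more widely than the 3 PMM libraries. The mean FPKM over all 276 lncRNAs, weighted by length, was 0.879, 1.60 and 0.341 in LDM replicates 1, 2 and 3 and 0.933, 0.925 and 0.643 in PMM. Values set in threes are in the order of the replicates throughout. LDM replicate 2 was the highest library and LDM replicate 3 the lowest, so that the LDM values enclosed all PMM values. LDM averaged 0.938 ± 0.630 FPKM and PMM 0.834 ± 0.165 (SD, n = 3 each), a log2 ratio of 0.17. This ratio was -0.45 without LDM replicate 2 and 0.57 without LDM replicate 3, and the level thus gave no direction between the muscles that held beyond the spread of LDM. No test was run on this mean, since it is a score over chosen transcripts.

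The same spread was smaller in shorter and in spliced intergenic transcripts. The highest LDM library stood 4.68-fold above the lowest in the long unspliced lncRNAs. In single-exon models of over 400 to 5000 bp it stood 2.86-fold above, in those of up to 400 bp 1.63-fold and in multi-exon models 1.56-fold. In PMM the 4 classes had 1.45-fold, 1.31-fold, 1.14-fold and 1.20-fold. The level of the long unspliced lncRNAs as a share of that of multi-exon intergenic lncRNAs was 38.5%, 49.3% and 16.4% across LDM and 37.3%, 30.9% and 23.7% across PMM. These are descriptions over transcripts of the same libraries and carry no test.

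The 64 long unspliced lncRNAs above 0 FPKM in all 6 libraries showed the same order. For each library the ratio of FPKM to the geometric mean of the 6 libraries was taken for each lncRNA, and its median is called the library factor. The factor was 0.902, 1.66 and 0.444 in LDM replicates 1, 2 and 3 and 1.26, 1.21 and 0.996 in PMM. LDM replicate 2 was the highest of the 6 libraries for 39 of the 64 lncRNAs (60.9%), and LDM replicate 3 was the lowest for 49 (76.6%). The factor of LDM replicate 3 was 0.954 in multi-exon intergenic transcripts.

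The gap between the LDM libraries widened with transcript length. Among single-exon intergenic transcripts above 0 in all 6 libraries, the ratio of the factors of LDM replicate 2 and LDM replicate 3 was 1.51 up to 1000 bp (147 transcripts), 2.41 over 1000 to 2500 bp (138 transcripts) and 3.32 over 2500 to 5000 bp (86 transcripts). It was 3.39 over 5000 to 10000 bp (37 transcripts) and 4.14 over 10000 bp (27 transcripts). LDM replicate 3 went from 0.805 in the shortest of these bins to 0.427 in the longest, and LDM replicate 2 from 1.22 to 1.77. The 5000 bp limit of the rule therefore lay within a gradual course and marked no step in it. In the paper's read summary, the share of non-splice reads was highest in LDM replicate 2 and lowest in LDM replicate 3. The 6 libraries ranked by that share as they did by the factors of the 64 long unspliced lncRNAs. The cause was not tested.

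**Figure D2:**
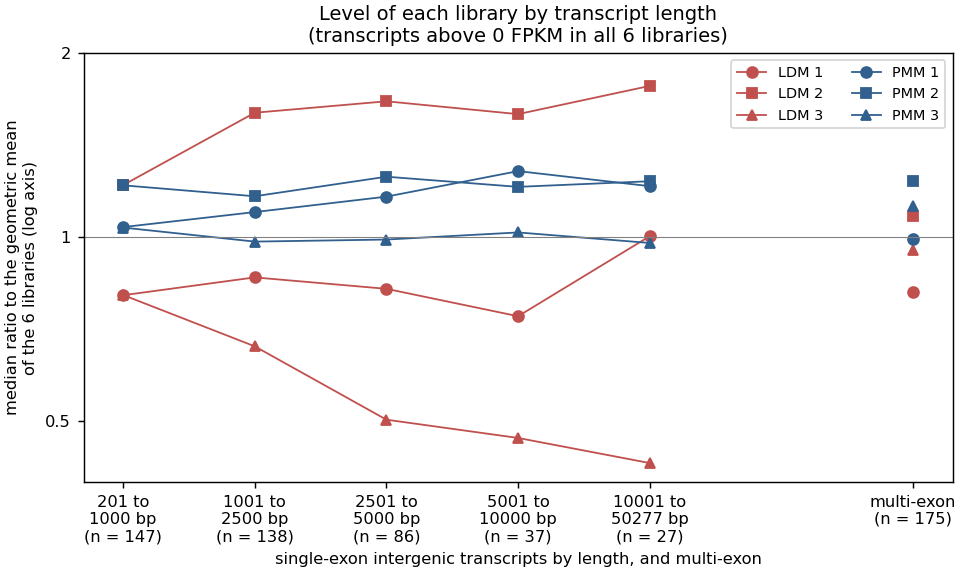
Median ratio of FPKM to the geometric mean of the 6 libraries (log axis) for single-exon intergenic transcripts in 5 length bins and for multi-exon intergenic transcripts, with 1 line per library. LDM replicates 2 and 3 move apart with length, from 1.22 and 0.805 up to 1000 bp to 1.77 and 0.427 over 10000 bp.

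Among the 64, the PMM libraries were also the more alike in which lncRNAs were high. The Pearson correlation of log2 FPKM across the 64 lncRNAs was 0.559, 0.891 and 0.718 for the 3 pairs of PMM libraries and 0.106, 0.330 and 0.309 for the 3 pairs of LDM libraries. Pairs of 1 LDM and 1 PMM library had 0.164 to 0.611. Spearman correlations were 0.655, 0.902 and 0.785 within PMM and higher than the Pearson values within LDM, at 0.223, 0.453 and 0.465. Between the muscles they were 0.284 to 0.667. These correlations are across transcripts of shared libraries, which are not independent replicates.

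More of the long unspliced lncRNAs were listed, meaning above 0 FPKM, in LDM than in PMM, but the libraries overlapped. They numbered 191, 217 and 185 in LDM replicates 1, 2 and 3 and 173, 187 and 152 in PMM. LDM averaged 198 ± 17.0 and PMM 171 ± 17.6 (SD, n = 3 each), and PMM replicate 2 lay above LDM replicate 3. The mean shares were 71.6% in LDM and 61.8% in PMM, beside 62.8% and 55.1% over all 4046 transcripts. They were 58.9% and 48.6% for single-exon models of over 400 to 5000 bp, and 94.6% and 96.8% for multi-exon intergenic models. Over all transcripts and in the former class the muscles did not overlap, so a higher share in LDM was not particular to the long models. Each lncRNA was listed in at least 1 library, 19 in 1 library, 37 in 2, 51 in 3, 50 in 4, 55 in 5 and 64 in all 6. The last share (23.2%) compares with 13.9% of single-exon models of over 400 to 5000 bp, 12.7% of those of up to 400 bp and 88.4% of multi-exon intergenic models. All 3 PMM libraries were at 0 for 32 lncRNAs and all 3 LDM libraries for 9. Of those 32, 2 were above 0 in every LDM library, and of the 9 none was above 0 in every PMM library. LDM replicates 1, 2 and 3 were the only library to list 3, 9 and 2 of the former. PMM replicates 1, 2 and 3 were so for 3, 2 and 0 of the latter. These counts were not taken over all transcripts.

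Of the 19 lncRNAs listed in 1 library, LDM replicate 2 held 9 and the other libraries 0 to 3 each. MSTRG.2210.1 on chromosome 10 (7898 bp) had 2.39 FPKM there, or 911 read equivalents, and was at 0 in the other 5 libraries. MSTRG.10659.1 on chromosome 2 (8714 bp) had 2.02 FPKM and MSTRG.94.1 on chromosome 1 (6301 bp) 1.69 FPKM in the same library alone. LDM replicate 3 was the library most often missing by itself, at 0 for 15 lncRNAs that all other libraries listed, against 8 for LDM replicate 1, 3 for LDM replicate 2 and 11, 7 and 11 for PMM replicates 1, 2 and 3.

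Many of the zeros stood where the other libraries of the muscle gave a well-covered value. Of the 1656 values, 551 (33.3%) were 0, and 186 of these stood beside 2 replicates of the same muscle that were both above 0. For each of the 186 the reads expected were taken from the lower FPKM of these replicates, the depth of the library and the length of the lncRNA. At least 100 read equivalents were expected at 150 of the 186 (80.6%) and at least 1000 at 7, with a median of 223. MSTRG.8077.1 (26869 bp) was at 0 in LDM replicate 3 where 2090 were expected, and MSTRG.18575.1 (5158 bp) at 0 in the same library where 1867 were expected. MSTRG.14329.1 (11989 bp) was at 0 in PMM replicate 3 with 1422 expected, and MSTRG.18952.1 (8988 bp) in PMM replicate 1 with 1340 expected. Among single-exon models of over 400 to 5000 bp, 202 of 1223 such zeros (16.5%) had 100 expected, and among those of up to 400 bp none of 282, as follows in part from their length. How the authors' pipeline came to give these zeros was not tested, and a 0 is described below as listed at 0 and not as absence of the RNA.

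**Figure D3:**
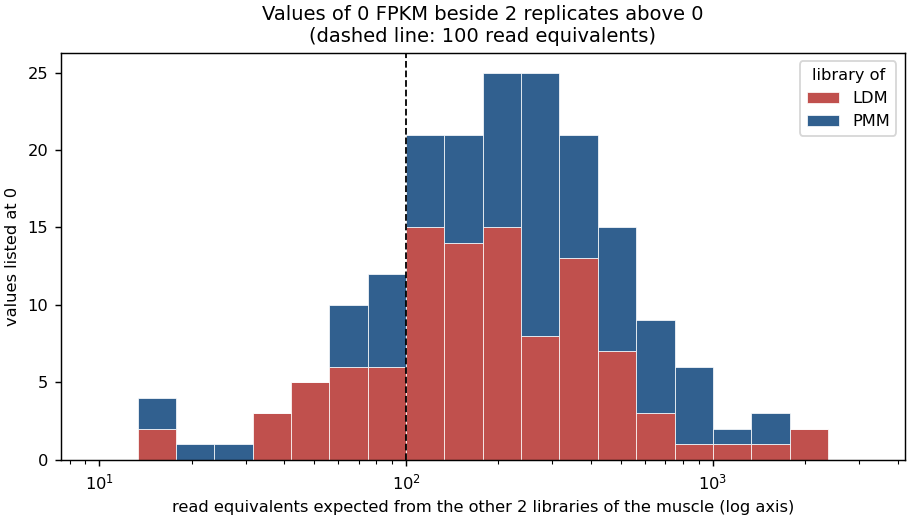
Histogram of the read equivalents expected (log axis) at values of 0 FPKM that stood beside 2 replicates above 0, for LDM and PMM libraries, with the dashed line at 100. Of 186 such values, 150 lie at or right of the line, and the highest is 2090.

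Longer members were somewhat more often listed. All 6 libraries listed 22 of 137 lncRNAs of up to 7500 bp (16.1%), 15 of 57 of over 7500 to 10000 bp (26.3%) and 27 of 82 over 10000 bp (32.9%). The median of the mean FPKM was 0.636, 0.514 and 0.896 in the same bins. Length had a Spearman correlation of 0.14 with mean FPKM and of 0.16 with the number of libraries listed, over 276 lncRNAs that share the same libraries. The coding scores had 0.02 (CPC) and -0.03 (CNCI) with mean FPKM. At the limit of the rule, MSTRG.1173.1, 1 base over it, had 1.34, 0 and 0 FPKM across LDM and 0, 0.431 and 0 across PMM, and MSTRG.17158.1 (5002 bp) was listed in PMM replicate 2 alone at 0.319. Just outside it, MSTRG.12262.1 (4998 bp) had 0 in all 3 LDM libraries and 1.52, 0 and 1.16 in PMM, and MSTRG.8866.1 (4972 bp) 0, 0 and 0.299 across LDM and 1.45, 0.906 and 0.779 across PMM.

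The comparison of LDM with PMM asked which of these lncRNAs differ between a glycolytic and an oxidative muscle. It used limma on log2(FPKM + 1) over the 1721 transcripts that each library of LDM, of PMM or of both listed, two-sided, with Benjamini-Hochberg adjustment. The filter passed 140 of the 276 lncRNAs, 64 in both muscles, 48 in LDM alone and 28 in PMM alone, and left out 136. None of the 140 had an adjusted p under 0.05 from limma, where 0.0581% of all tested transcripts did with LDM higher and 0.116% with PMM higher. At an unadjusted p under 0.05, 3 were higher in LDM (2.14%, against 3.14% of all tested) and 6 in PMM (4.29%, against 4.71%). When the log2 difference also had to reach 1 in size, none was higher in LDM (1.34% of all tested) and 3 in PMM (2.44%). These shares lay at or under the background. All 3 with LDM higher at an unadjusted p under 0.05 passed the filter through LDM alone. Of the 6 with PMM higher, MSTRG.950.1, MSTRG.2366.1 and MSTRG.628.1 passed through PMM alone. The filter favoured these directions, so those p-values are not support for a difference.

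The replicate numbers may pair the libraries across muscles, as set out with the processing, though no label states it. With the replicate number as a block, limma gave an adjusted p under 0.05 for 1 lncRNA higher in LDM (1.1% of all tested) and 2 with PMM higher (1.69% of all tested). The counts at an unadjusted p under 0.05 were then 5 (4.24% of all tested) and 11 (8.48%). They too hold lncRNAs that passed the filter only through the muscle in which they are high. In this fit the spread of each transcript was replaced by that of the intensity trend. With the block and with FPKM scaled by the library factors of the 64 lncRNAs, none of the 3 passed.

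The values of the muscles did not overlap for 14 of the 140, 3 higher in LDM (2.14%, against 5.87% of all tested) and 11 in PMM (7.86%, against 9.01%). For 2 of the 3 all PMM libraries were at 0, where the filter allows no overlap. Among the 64 above 0 in all 6 libraries, none was separated with LDM higher, against 2.52% of the 914 such transcripts. With PMM higher, 8 of the 64 were separated (12.5%, against 9.3% of the 914).

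Over the 64 lncRNAs above 0 in all 6 libraries the median difference of log2(FPKM + 1), LDM minus PMM, was -0.14, with 20 higher in LDM and 44 in PMM. The median over all 914 such transcripts was -0.12. Without LDM replicate 3 the median over the 64 was 0.08 with 42 higher in LDM, and without LDM replicate 2 it was -0.39 with 10 higher in LDM. The same removals moved the median over the 914 to -0.03 and -0.26.

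MSTRG.10651.1 was above 0 in every library, with higher values in PMM and little spread within each muscle in the unscaled FPKM. It is a model of 8433 bp on the minus strand of chromosome 2 from 98917733 to 98926165. Its FPKM was 0.754, 0.859 and 1.03 across LDM and 2.55, 3.08 and 2.38 across PMM, so that each PMM library was more than double any LDM library. LDM averaged 0.883 ± 0.142 and PMM 2.67 ± 0.361 (SD, n = 3 each), 3.02-fold higher in PMM. The log2 difference was -0.96 (standard error 0.35, unadjusted p = 0.0138, adjusted p = 0.525 from limma), which did not pass the adjusted threshold. The standard error draws largely on the spread of other transcripts and is not that of these 6 values alone. With FPKM scaled by the library factors of the 64, its log2 difference was -0.66. The adjusted p from limma was then 0.518, and 0.464 with the block added. Under that scaling LDM replicate 3 lies above PMM replicate 1, so the separation of the muscles is lost. The lncRNA was singled out after its values were seen.

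MSTRG.950.1, a model of 7231 bp on the plus strand of chromosome 1 from 143528080 to 143535310, had the smallest p among the lncRNAs higher in PMM. It was listed at 0, 0 and 1.69 FPKM across LDM and at 2.24, 2.60 and 2.08 across PMM. The PMM libraries were close to each other, and the only LDM library above 0 was replicate 3. The log2 difference was -1.25 (standard error 0.42, adjusted p = 0.462 from limma without the block and 0.0268 with it). It passed the filter through PMM alone, the muscle in which it is high, so this call with the block is not support for a difference. With the block and the scaling by the library factors of the 64, the log2 difference was -0.83 and the adjusted p 0.417 from limma.

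MSTRG.6946.1 lies on the plus strand of chromosome 15 from 994188 to 1002047 and spans 7860 bp. Its FPKM was 1.13, 0.219 and 1.67 across LDM and 3.99, 2.53 and 2.95 across PMM. LDM replicate 2, the highest library for most of the 64, was the lowest for this one. The log2 difference was -1.11 (standard error 0.39, adjusted p = 0.462 from limma, 0.0464 once the block was added). With the block and that scaling it was -0.69, with an adjusted p of 0.487 from limma.

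The next lncRNAs higher in PMM among those with no overlap had adjusted p-values of 0.462 to 0.622 from limma. MSTRG.2366.1 on chromosome 10 (5748 bp) had 0, 0 and 0.521 FPKM across LDM and 1.84, 1.54 and 1.06 across PMM. MSTRG.7217.1 on chromosome 15 (5962 bp) had 0.415, 1.31 and 0.172 across LDM and 1.67, 2.68 and 1.37 across PMM. For this one LDM replicate 2 was close to PMM replicate 3. MSTRG.8435.1 on chromosome 17 (6913 bp) had 0.270, 0 and 1.0 across LDM and 1.31, 1.58 and 1.25 across PMM. MSTRG.8003.1 on chromosome 16 (6685 bp) had 0.410, 1.09 and 0.220 across LDM and 1.87, 1.56 and 1.37 across PMM. MSTRG.14311.1 on chromosome 5 (7547 bp) had 1.16, 0.670 and 0.321 across LDM and 2.56, 1.28 and 1.61 across PMM. None of these 5 passed with the block. MSTRG.2366.1 and MSTRG.8435.1 passed the filter through PMM alone, the muscle in which they are high, so their separation is not support for a difference. MSTRG.628.1 on chromosome 1 (5290 bp) and MSTRG.15031.1 on chromosome 6 (6345 bp) also had an unadjusted p under 0.05 from limma, but their muscles overlapped, and they are named after their values were seen. The former had 0, 2.28 and 1.19 FPKM across LDM and 3.47, 2.21 and 2.64 across PMM, and the latter 1.92, 2.81 and 1.48 across LDM and 0, 2.53 and 0 across PMM. The former passed the filter through PMM alone and the latter through LDM alone, where each is higher. Their p-values are thus not support for a difference.

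The 3 lncRNAs with higher values in LDM and no overlap had adjusted p-values of 0.538 to 0.647 from limma. MSTRG.10658.1, a model of 6571 bp on the minus strand of chromosome 2, had 0.787, 1.79 and 0.514 FPKM in LDM, or 274, 568 and 198 read equivalents, and was listed at 0 in all 3 PMM libraries. Its log2 difference was 0.97 (standard error 0.37, adjusted p = 0.538 from limma). With a pseudocount of 0.01 in place of 1 it was 6.51 with an adjusted p of 0.0132 from limma. This value supports nothing, since the lncRNA passed the filter through LDM alone and the smaller pseudocount stretches the distance of a 0 from other values. It lies 167 kb from MSTRG.10651.1 on the same strand, and those 2 had opposite directions. MSTRG.2394.1 on chromosome 10 (5516 bp) had 1.41, 1.51 and 0.0372 FPKM across LDM and 0 in all 3 PMM libraries, where the lowest LDM value stood for 12 read equivalents. MSTRG.538.1 on chromosome 1 (5899 bp) had 2.90, 0.969 and 1.02 across LDM and 0, 0.862 and 0.789 across PMM. MSTRG.2394.1 and MSTRG.538.1 also passed the filter through LDM alone, where they are high, so their separation is not support either.

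**Figure D4:**
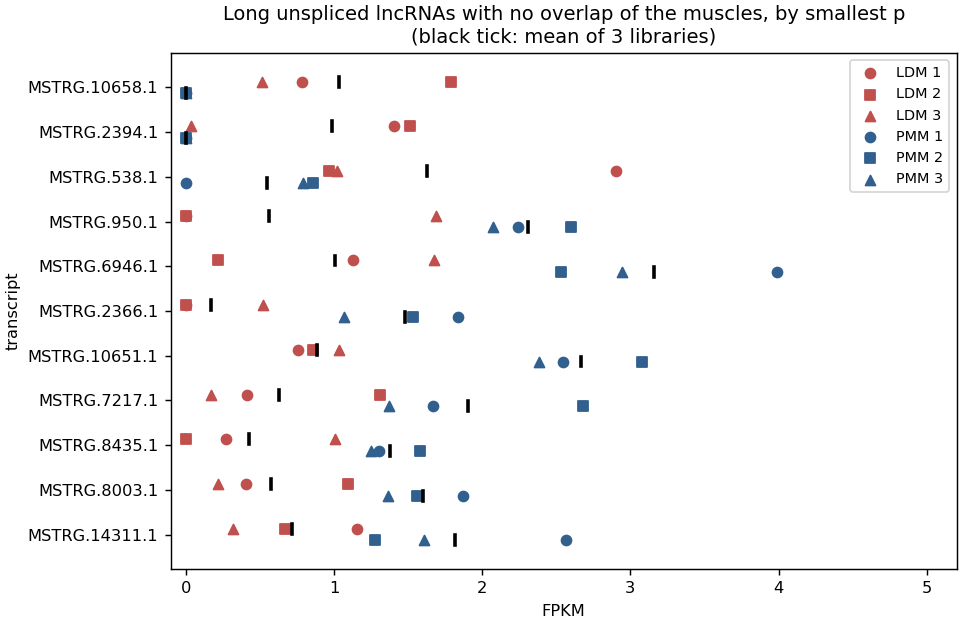
FPKM in the 6 libraries of the 11 long unspliced lncRNAs named by smallest p among those whose LDM and PMM values did not overlap, with 1 point per library and a black tick at the mean of 3 libraries. The first 3 are higher in LDM and the other 8 in PMM, and MSTRG.10651.1 has all LDM points at or under 1.03 and all PMM points at or over 2.38.

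The lncRNA of the highest mean FPKM owed it to 1 library. MSTRG.19151.1, a model of 10460 bp on chromosome 9, had 0.519, 16.6 and 1.67 FPKM across LDM and 1.17, 0.635 and 0.609 across PMM. LDM replicate 2 alone stood apart, and LDM replicate 1 was under all PMM libraries. Its log2 difference was 1.22 with all libraries (standard error 0.60 and adjusted p = 0.622, limma), and it was 0.17 without LDM replicate 2. It was the lncRNA called higher in LDM with the replicate block (adjusted p = 0.026 from limma), although the muscles overlapped, and with the block and the scaling above its log2 difference was 1.38 and its adjusted p 0.263.

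The other 4 of the highest mean FPKM were over 1 FPKM in 5 or 6 libraries each. MSTRG.5257.1 on chromosome 13 (10311 bp) had 2.52, 4.06 and 1.62 across LDM and 4.21, 4.52 and 3.51 across PMM, overlapping by 1 library. MSTRG.10576.1 on chromosome 2 (24419 bp) had 3.02, 4.58 and 0.920 across LDM and 4.43, 3.55 and 2.81 across PMM. On chromosome 9, 139 kb apart, MSTRG.18565.1 (16591 bp) had 3.74, 5.0 and 0.883 across LDM and 2.99, 3.99 and 2.11 across PMM, and MSTRG.18575.1 (5158 bp) had 6.38, 6.18 and 0 across LDM and 3.25, 1.90 and 1.77 across PMM. LDM replicate 3 was the lowest library for all 4. Their log2 differences ran from -0.49 to 0.21, with adjusted p of 0.718 to 0.957 from limma.

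The longest model, MSTRG.16637.1, spans 50277 bp on the plus strand of chromosome 7 from 33381359 to 33431635. It had 1.35, 2.53 and 0.523 FPKM across LDM and 1.33, 1.43 and 1.30 across PMM. The PMM libraries differed by little while LDM replicate 2 was high and LDM replicate 3 low, as in the library factors. MSTRG.7941.1 on chromosome 16 (35180 bp) had 1.50, 1.94 and 0.156 across LDM and 1.26, 1.51 and 1.15 across PMM. MSTRG.4691.1 on chromosome 13 (31459 bp) had 1.90, 0.786 and 0 across LDM and 0.785, 0.615 and 0.495 across PMM, and MSTRG.8238.1 on chromosome 16 (29793 bp) 1.12, 1.85 and 0.0103 across LDM and 1.26, 1.36 and 0.587 across PMM. LDM replicate 3 was the lowest for these 4. MSTRG.5932.1 on chromosome 14 (34128 bp) was steadier, at 1.09, 1.21 and 0.776 across LDM and 1.53, 1.38 and 1.15 across PMM.

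The steadiest of the lncRNAs above 0 in all libraries was MSTRG.1549.1 on chromosome 1 (5419 bp), with a coefficient of variation of 0.142 over the 6 libraries. It had 0.948, 1.24 and 1.23 FPKM across LDM and 1.50, 1.26 and 1.28 across PMM. MSTRG.7391.1 on chromosome 15 (7271 bp) had 1.76, 2.15 and 1.28 across LDM and 1.98, 1.86 and 1.81 across PMM, with a coefficient of 0.161. These lncRNAs were picked for small variation, which set a small gap between the LDM libraries in advance. MSTRG.7391.1 still had LDM replicate 2 as its highest library and LDM replicate 3 as its lowest, while MSTRG.1549.1 did not.

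Many of the long unspliced models lay next to another transcript of the table on the same strand. Within 5000 bp on the same strand such a neighbour was found for 153 of 276 (55.4%), and on the opposite strand for 14 (5.07%). The median gap was 2797 bp. A neighbour on the same strand was found for 41.3% of single-exon models of over 400 to 5000 bp, 27.4% of those of up to 400 bp and 18.2% of multi-exon intergenic models. Neighbours were mainly shorter single-exon models, 137 of over 400 to 5000 bp and 18 of up to 400 bp, and 47 were themselves long unspliced lncRNAs, beside 11 multi-exon models and 7 others.

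Linking intergenic transcripts on 1 strand that lie within 5000 bp of each other gave 247 runs that hold the 276 lncRNAs. Of these, 124 runs were a single lncRNA, and 123 held at least 2 transcripts, with 152 of the lncRNAs among 366 transcripts. Their median span was 16.7 kb and the widest, on chromosome 6, was 95.5 kb. At least 2 of the lncRNAs shared a run in 26 runs and 3 did in 3 runs. Whether the transcripts of a run are pieces of 1 RNA was not tested, and members of a run are not counted as independent.

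Long lncRNAs that lay close together had similar levels. Of 257 pairs adjacent on a chromosome, 24 were within 5000 bp on the same strand, and in 22 of them both were listed in at least 1 common library. The median fold between the neighbours there was 1.25, and 20 of 22 were within 2-fold (90.9%). In pairs on the same strand but farther apart, 77 of 124 were within 2-fold (62.1%), with a median of 1.60-fold. The listing matched less well. In the 24 close pairs both neighbours were listed at 74 of 144 values, 1 of them at 51 (35.4%) and neither at 19, while in the farther pairs 1 of them was listed at 42.4% of values. MSTRG.2135.1 and MSTRG.2136.1, 336 bp apart on chromosome 10, had 3.63 and 3.69 FPKM in LDM replicate 2 and at most 0.565 in any other library. MSTRG.7940.1 and MSTRG.7941.1, 260 bp apart on chromosome 16, had 1.05 and 1.50 in LDM replicate 1, but in LDM replicate 3 the former was at 0 and the latter at 0.156. MSTRG.671.1 and MSTRG.672.1, 305 bp apart on chromosome 1, had 1.53 and 1.58 in LDM replicate 2, while PMM replicates 1 and 2 listed the former at 0.982 and 1.31 and the latter at 0. MSTRG.12136.1 and MSTRG.12137.1, 278 bp apart on chromosome 3, had 0 and 1.73 in that LDM library. MSTRG.16058.1 and MSTRG.16059.1, 152 bp apart on chromosome 6, lie on opposite strands. The former was listed in 3 libraries at up to 1.36 FPKM and the latter in all 6 at 0.497 to 1.77.

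A run of 8 transcripts on the minus strand of chromosome 1, from 33906781 to 33974844, held 3 of the lncRNAs. MSTRG.232.1 (23263 bp) had 3.0, 0.950 and 0.538 FPKM across LDM and 1.08, 0.939 and 0.810 across PMM. MSTRG.237.1 (5806 bp) had 1.80, 1.10 and 0.440 across LDM and 0.922, 1.02 and 0.836 across PMM. MSTRG.238.1 (25254 bp) had 5.44, 2.61 and 1.14 across LDM and 3.08, 3.01 and 2.40 across PMM. In all 8 transcripts LDM replicate 1 was the highest library, unlike the library factors, in which LDM replicate 2 led. The run was chosen after its values were seen, as one of the runs with 3 members.

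**Figure D5:**
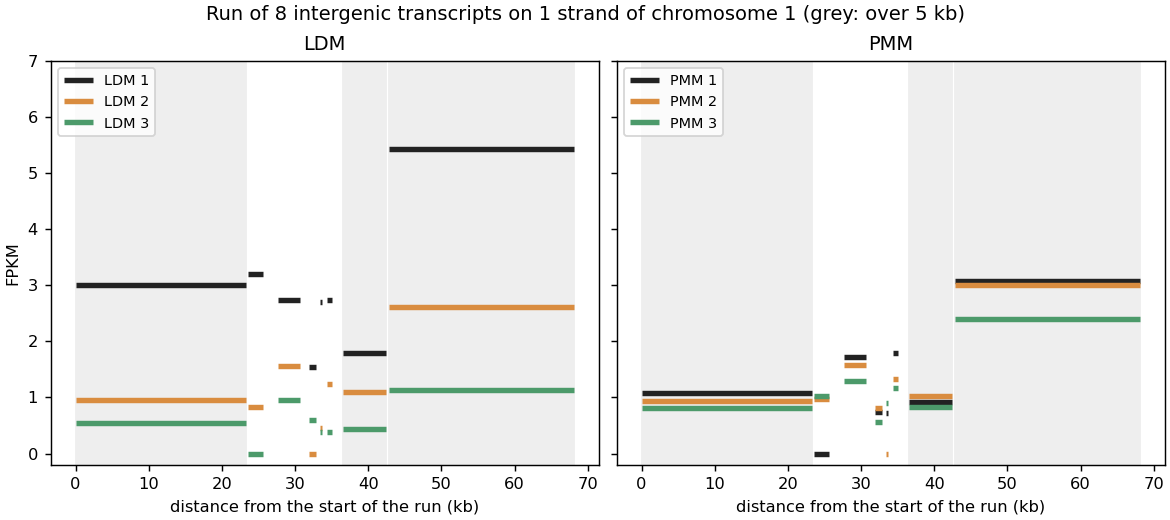
FPKM of the 8 transcripts of the chromosome 1 run over 68064 bp, at their distance from its lowest position (kb), in the LDM panel and the PMM panel, with 1 colour per library and the 3 models over 5 kb shaded grey. LDM replicate 1 is the highest library in all 8 transcripts and reaches 5.44 FPKM in MSTRG.238.1.

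Few of the lncRNAs lay near a gene that the table names. Within 10 kb of a transcript that overlaps a named gene were 4 of the 276 (1.45%), beside 2.08% of single-exon models of over 400 to 5000 bp, 0.992% of those of up to 400 bp and 3.03% of multi-exon intergenic models. The distance was measured to that transcript, not to the gene, since no annotation of the table's own build was used, and genes with no transcript in the table are not counted. MSTRG.18952.1 lies 4368 bp from a transcript at KMT2E, which encodes a SET-domain protein of chromatin, and had 1.12, 0 and 0 FPKM across LDM and 0, 4.48 and 2.95 across PMM. MSTRG.19278.1 lies 4544 bp from a transcript at RPS6KA3, a ribosomal S6 kinase of growth factor signalling, and had 1.82, 2.0 and 0.666 across LDM and 0.683, 1.37 and 0 across PMM. In both the muscles overlapped. MSTRG.7277.1 and MSTRG.19718.1 lie 3519 and 3794 bp from transcripts at ENSSSCG00000015931 and at CH242-124P4.2.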

How the data were processed

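RNA of 3 LDM and 3 PMM samples was sequenced as 150-bp paired reads. The authors aligned them with Tophat to Sscrofa11.1, assembled transcripts and kept those of low CNCI and CPC score. The methods name Cufflinks and describe the removal of transcripts with fewer than 2 exons, whereas the deposited table has MSTRG names and many single-exon models. Its deposited FPKM and mean coverage (a signal with no scaling between libraries), the deposited CPC and CNCI scores, and the lengths and exon numbers were used as given. Length times coverage came out whole, within 0.02 bases, for 89.2% of the members' values. Reads were not used.

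FPKM were tested as log2(FPKM + 1), LDM minus PMM, with limma 3.58.1 (R 4.3.3, intensity trend, Benjamini-Hochberg) over 1721 transcripts, after a check on simulated data. This scale understates changes of low FPKM. The spread of each transcript was drawn toward the intensity trend, with 15.3 prior degrees of freedom in the main fit. Members, lists and the naming rule (smallest p among non-overlapping, highest, longest, at the length limit, closest, steadiest, listed in 1 library) were chosen with earlier results of these data known. The names for genes near a lncRNA are the table's own. Adjusted p-values come from limma.

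After the mean of each muscle was subtracted, libraries sharing a replicate number had correlations of 0.239, 0.123 and 0.168, and other pairs had -0.179 to 0.0423, over all transcripts tested. Over the long unspliced lncRNAs tested, pairs of the same number had 0.183, 0.175 and 0.0618. Since the mean of 3 libraries was subtracted, higher values for shared numbers go with lower ones for other pairs. The contrast is thus not independent support. The numbers were used as a block only as an alternative, no label states that they pair the libraries, and what they stand for was not tested.

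Alternatives were other pseudocounts, filters and scaling, no trend, the replicate block and left-out libraries. Scaling by the 64 members' factors, that scaling with the block, and a filter on values above 0 in all 6 libraries were added after the data were seen.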

Additional observations from a re-analysis of the deposited data

How the results depend on the processing

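The count of long unspliced lncRNAs at an adjusted p under 0.05 from limma, 0 in both directions, was 1 higher in LDM with pseudocount 0.01 and, under the replicate block, 1 with LDM higher and 2 with PMM higher. Over all 1721 tested, the count with LDM higher was 58 with pseudocount 0.01, and the block gave 19 and 29. The count of long unspliced lncRNAs stayed at 0 in the other settings. At an unadjusted p under 0.05 with LDM higher, the count was 3 of 140, beside 54 of 1721 over all tested. It was 5 with median-of-ratios scaling (93 over all tested), 5 with the block (73) and 5 with scaling by the members' factors (126). It was 14 with that scaling and the block (157 over all tested). Among transcripts above 0 in all 6 libraries it was 0 of 64, beside 8 of 914. Leaving out 1 library changed the number tested and gave 1 to 11. The count was 11 of 166 without LDM replicate 3, beside 206 of 2061 over all tested. It was 8 of 171 (143 of 2088) without LDM replicate 1 and 1 of 164 (27 of 1937) without PMM replicate 3. The count with PMM higher was 6 of 140, beside 81 of 1721 over all tested. It was 11 with the block (146 over all tested). With scaling by the members' factors it was 3 (64), and 3 (68) with that scaling and the block. Leaving out 1 library gave 3 to 14. It was 14 of 159 (158 of 1949 over all tested) without LDM replicate 2 and 3 of 171 (50 of 2088) without LDM replicate 1. In each setting printed here the count over all tested moved in the same direction, so the shifts were not particular to the long models. Over the left-out libraries MSTRG.18575.1 ranged from -0.28 to 1.17, MSTRG.10576.1 from -0.71 to 0.059 and MSTRG.18565.1 from -0.41 to 0.43. MSTRG.18575.1 turned from a log2 difference of 0.21 to -0.54 with pseudocount 0.1, -1.60 with 0.01, -0.28 without LDM replicate 1 and -0.26 without LDM replicate 2. MSTRG.10576.1 turned from -0.38 to 0.059 without LDM replicate 3. MSTRG.18565.1 turned from -0.07 to 0.090 with median-of-ratios scaling, 0.15 with scaling by the members' factors, with or without the block, 0.43 without LDM replicate 3 and 0.10 without PMM replicate 2. The cause of these turns was not tested. The block changed no other call among the named lncRNAs. The 3 libraries of each muscle, the spread within LDM and the zeros at well-covered models limit what can be said of single lncRNAs, while counting error is small beside them.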
